A study of Mus musculus with 10 samples.

Results

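The genes described here are 9 astrocyte genes, grouped under the name perisynaptic astrocyte genes: Slc1a2, Slc1a3, Slc6a11, Glul, Gja1, Aqp4, Gfap, Aldoc and Slc4a4. Where in the cell their RNA lay was not measured. They were chosen by symbol from a gene table of 22255 genes, through the Ensembl identifier of each row, and all 9 passed the filter on low counts that left 14358 genes for testing. The RNA came from hippocampal synaptoneurosomes, a biochemical fraction rich in nerve terminals that have resealed together with the spines facing them, of C57Bl/6J mice that the library titles mark as wild type. The 5 vehicle libraries came from mice given vehicle, and the 5 AM6545 libraries from mice given AM6545, a cannabinoid CB1 receptor antagonist that enters the brain poorly, over a sub-chronic course. Library totals ranged from 18106112 to 25899794 counts. The labels give no dose, age or sex, and do not say whether a library is 1 animal or a pool, so n counts libraries and p-values measure only the spread between them. A lower level of an astrocyte gene in such a preparation cannot be told apart from fewer astrocyte fragments in it.

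Astrocyte processes ensheath synapses and end the signal by taking up released transmitter. Glutamate enters through the transporters GLT-1 and GLAST, is turned into glutamine by glutamine synthetase, and is handed back to neurons. The same processes are joined by gap junctions, move water and bicarbonate, and carry messenger RNA far from the cell body. Part of the RNA of a synaptic fraction may therefore be theirs. No other fraction was among the libraries, so RNA of processes and of cell bodies was not told apart.

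None of the 9 genes passed the test for a difference between AM6545 and vehicle, and the intervals below give the sizes that the data allow. Of 14358 genes tested, 0 had an adjusted p under 0.05 (0% called; edgeR's quasi-likelihood test with Benjamini-Hochberg adjustment), and the smallest adjusted p of any gene was 0.9998, which was also the adjusted p of each of the 9. DESeq2 called 0 genes and limma-voom 1, which was not among the 9. At an unadjusted p under 0.05, 270 genes passed by edgeR (1.88%) and 0 of the 9. Groups did not overlap for 42 genes (0.293%) and overlapped for every one of the 9. The log2 fold changes of the 9, AM6545 against vehicle, had a median of 0.06, with 6 above 0 and 3 below, beside a median of -0.0057 over all tested genes. Their median size was 0.071 regardless of sign, against 0.086 over all tested genes, and their median standard error of 0.14 was close to the 0.13 of all genes.

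**Figure D1:**
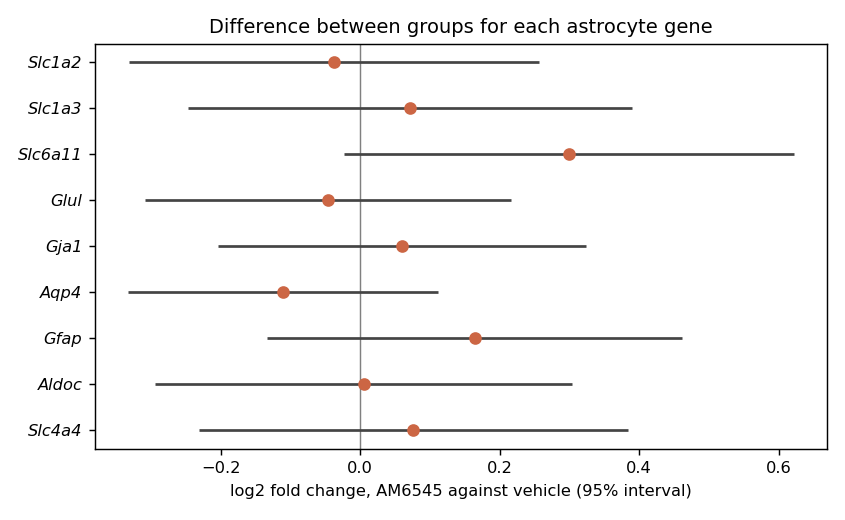
Log2 fold change of each of the 9 astrocyte genes, AM6545 against vehicle, on the x axis, with 1 row per gene. Points are edgeR estimates over 5 and 5 libraries and bars are 95% intervals. All 9 intervals include 0, and that of Slc6a11, from -0.024 to 0.62, reaches farthest to the right.

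Glutamate uptake is carried by Slc1a2 and Slc1a3. Slc1a2 (ENSMUSG00000005089.16, chromosome 2 from 102658659 to 102790784, plus strand, GRCm38) encodes GLT-1, the main glutamate transporter of the adult forebrain, and overlaps Gm13872 on the opposite strand. In vehicle replicates 1 to 5 it stood at 880.2, 663, 909, 899 and 826 CPM, the count relative to the library total scaled by the TMM method, and in AM6545 replicates 1 to 5 at 801, 815, 1061, 807 and 585. The highest and the lowest library were both AM6545 libraries, and the other 8 lay between 663 and 909. The means were 836 ± 102 and 814 ± 169 CPM (SD over n = 5 per group), and the log2 fold change was -0.038 (SE 0.139). The 95% interval allows a level from 0.794 to 1.19 times that of vehicle.

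Slc1a3 (ENSMUSG00000005360.15, chromosome 15 from 8634124 to 8710764, minus strand) encodes GLAST, the transporter that dominates in cerebellar and radial glia and is shared by hippocampal astrocytes. Its CPM was 549, 887, 851, 720.1 and 719.7 under vehicle and 839, 659, 1032, 771 and 614 in AM6545 libraries. Vehicle replicate 1 was the lowest of all and AM6545 replicate 3 the highest. The means of 745 ± 133 and 783 ± 165 CPM (SD over n = 5 per group) differed by 0.071 on the log2 scale (SE 0.151, 95% interval -0.25 to 0.39). The ratio of Slc1a2 to Slc1a3 counts ranged from 0.748 in vehicle replicate 2 to 1.604 in vehicle replicate 1, and within AM6545 from 0.952 to 1.24. Averaged, it was 1.16 ± 0.31 under vehicle and 1.04 ± 0.12 in AM6545 (SD over n = 5 per group), so the group means lay within the vehicle spread.

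Slc6a11 (ENSMUSG00000030307.9, chromosome 6 from 114131241 to 114249952, plus strand) encodes the GABA transporter GAT-3, found mainly on astrocyte processes. It was the scarcest of the 9 by count, with 406 to 1059 counts a library, and varied most, with a coefficient of variation of 20.6% over the 10 libraries. Vehicle libraries held 19.7, 36.9, 32.9, 35.96 and 34.6 CPM, and AM6545 libraries 36.7, 34.0, 47.9, 44.1 and 34.6. Vehicle replicate 1 was far below the rest, which ran from 32.9 to 47.9 CPM, and the coefficient of variation includes it. AM6545 replicates 3 and 4 were above every vehicle library, and the other 3 AM6545 libraries lay within the vehicle range. The means of 32.0 ± 7.1 and 39.5 ± 6.2 CPM (SD over n = 5 per group) gave the largest fold change among the 9, 0.30 on the log2 scale (SE 0.153, adjusted p = 0.9998 by edgeR). The 95% interval runs from 0.984 to 1.54 times the vehicle level. Without vehicle replicate 1 the log2 fold change was 0.17. Over 18 alternative analyses the smallest adjusted p for Slc6a11 was 0.9151, with limma-voom and also with edgeR without vehicle replicate 2.

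Glul (ENSMUSG00000026473.17, chromosome 1 from 153899944 to 153909723, plus strand) encodes glutamine synthetase, which makes glutamine from the glutamate that astrocytes take up. It measured 425, 293, 275, 309 and 283 CPM under vehicle and 292, 321, 277, 359 and 286 CPM in AM6545 libraries. Vehicle replicate 1 was the highest of the 10 and the other 9 lay between 275 and 359. The means were 317 ± 62 and 307 ± 34 CPM (SD over n = 5 per group), with a log2 fold change of -0.046 (SE 0.124, 95% interval -0.31 to 0.22). Of the 31-base words in its transcripts, 20.4% occur in other genes, so some of its reads may have been divided between copies. The gene that shares the most of these words is the pseudogene Glns-ps1. Glul also overlaps Teddm2 on the opposite strand and Mir8114 on its own, and the use of strand in the counting is not given in the sources used here.

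Gja1 (ENSMUSG00000050953.11, chromosome 10 from 56377330 to 56402513, plus strand) encodes the connexin that forms most gap junctions between astrocytes. Vehicle libraries held 177, 282, 290.4, 242 and 245 CPM, and AM6545 libraries 258, 233, 302, 255 and 242. As for Slc1a3, vehicle replicate 1 was the lowest and AM6545 replicate 3 the highest. The means were 247 ± 45 and 258 ± 26 CPM (SD over n = 5 per group), and the log2 fold change was 0.06 (SE 0.125, 95% interval -0.20 to 0.32).

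Aqp4 (ENSMUSG00000024411.12) encodes the water channel of astrocyte endfeet, the processes that line blood vessels. It had 109.8, 102, 129, 118 and 109.7 CPM under vehicle and 89.0, 105, 126, 108 and 98.6 CPM in AM6545 libraries. AM6545 replicates 1 and 5 fell below every vehicle library, while the other 3 lay within the vehicle range. Aqp4 varied least among the 9, with a coefficient of variation of 11.1% over the 10 libraries, below the 14.5% that was the median of all tested genes. Its means were 114 ± 10 and 105 ± 13 CPM (SD over n = 5 per group), a log2 fold change of -0.11 (SE 0.105). The 95% interval runs from 0.794 to 1.08 times the vehicle level.

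Gfap (ENSMUSG00000020932.15, chromosome 11 from 102887336 to 102900912, minus strand) encodes the main intermediate filament protein of astrocytes and rises when they become reactive. Its CPM was 187, 349, 271, 304 and 287 under vehicle and 299, 262, 335, 365 and 306 in AM6545 libraries. Vehicle replicate 1 was again the lowest, AM6545 replicate 4 was the highest, and the remaining 8 libraries of the groups were interleaved. The means of 280 ± 60 and 313 ± 39 CPM (SD over n = 5 per group) differed by 0.16 on the log2 scale (SE 0.141, 95% interval -0.13 to 0.46), and without vehicle replicate 1 by 0.049.

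Aldoc (ENSMUSG00000017390.16, chromosome 11 from 78322968 to 78327781, plus strand) encodes aldolase C, the glycolytic aldolase that in the forebrain marks astrocytes. It was the most abundant of the 9 by count, the 45th of 14358 tested genes by CPM, and supplied 43.4 ± 5.5% of the summed counts of the 9 genes under vehicle and 43.2 ± 3.5% under AM6545 (SD over n = 5 per group). The libraries held 2601, 1630, 1858, 2181 and 1934 CPM under vehicle and 2499, 1969, 2061, 2131 and 1578 CPM in AM6545. Replicate 1 was the highest of its group in both, and AM6545 replicate 5 the lowest overall. The means of 2041 ± 370 and 2048 ± 331 CPM (SD over n = 5 per group) differed by 0.0048 on the log2 scale (SE 0.141), with a 95% interval from 0.816 to 1.23 times the vehicle level.

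Slc4a4 (ENSMUSG00000060961.17, chromosome 5 from 88886818 to 89239653, plus strand) encodes the electrogenic sodium bicarbonate cotransporter, by which astrocytes buffer the acidity around active synapses. It had 52.3, 80.9, 76.6, 67.4 and 70.6 CPM under vehicle and 68.2, 72.6, 101, 70.3 and 55.1 CPM in AM6545 libraries. Vehicle replicate 1 and AM6545 replicate 5 were the lowest, and AM6545 replicate 3 was the highest. The means were 69.6 ± 10.98 and 73.4 ± 16.7 CPM (SD over n = 5 per group), and the log2 fold change was 0.076 (SE 0.146, 95% interval -0.23 to 0.38).

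**Figure D2:**
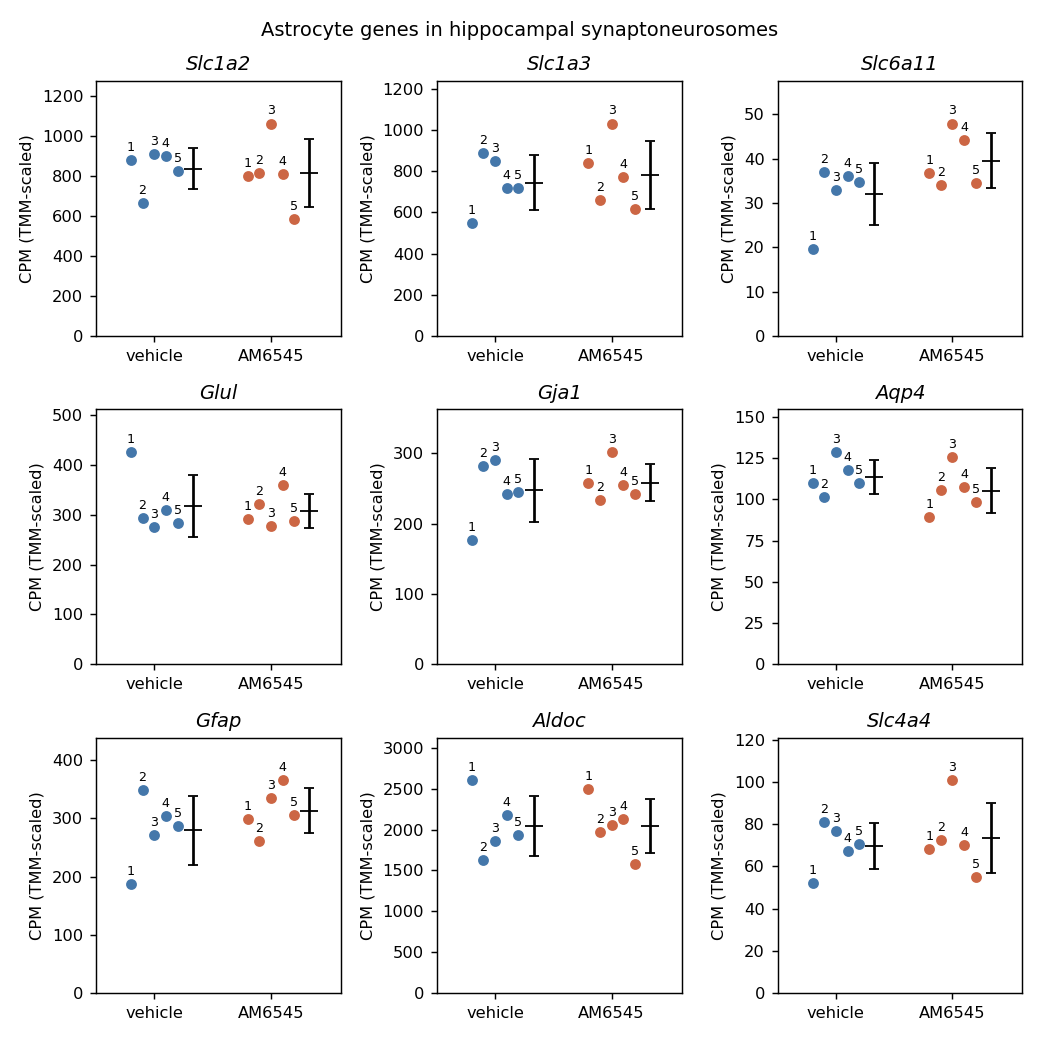
TMM-scaled CPM of the 9 astrocyte genes, 1 panel per gene, with each point a library numbered by its replicate and the bars giving the group mean and SD (n = 5). The groups overlap in every panel, and vehicle replicate 1 is the lowest point for Slc1a3, Slc6a11, Gja1, Gfap and Slc4a4 and the highest for Glul and Aldoc.

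Together the 9 genes took 0.480%, 0.460%, 0.461%, 0.470% and 0.460% of all counts in vehicle replicates 1 to 5, and 0.515%, 0.445%, 0.535%, 0.485% and 0.392% in AM6545 replicates 1 to 5. For this sum the AM6545 libraries lay on both sides of the vehicle libraries. Without Aldoc, the largest contributor, the share ran from 0.230% to 0.286% under vehicle and from 0.229% to 0.329% under AM6545, with means of 0.264 ± 0.022% and 0.270 ± 0.037% (SD over n = 5 per group). The means were 0.466 ± 0.009% and 0.474 ± 0.057% (SD over n = 5 per group), and the sign of the difference turned when AM6545 replicate 1 or AM6545 replicate 3 was left out. Exact 95% Clopper-Pearson intervals ran from 0.389% to 0.395% for the lowest library and from 0.532% to 0.539% for the highest. These intervals cover counting error only, not the spread between libraries. Amplified copies counted as separate reads would make them too narrow.

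Levels of different genes were compared per transcript length, as TPM, each transcript's length-corrected share scaled to a fixed sum, computed from the transcript table. Aldoc came first at 2197 ± 235 under vehicle and 2267 ± 379 in AM6545 libraries, followed by Glul at 653 ± 96 and 638 ± 82 and Slc1a3 at 350.1 ± 85.6 and 371 ± 73 (SD over n = 5 per group). Gfap followed at 207 ± 59 and 233 ± 29, Gja1 at 156 ± 37 and 165 ± 15, and Slc1a2 at 140.0 ± 11.4 and 139.7 ± 26.3. Aqp4 stood at 58.5 ± 10.5 and 55.8 ± 9.3, Slc4a4 at 18.3 ± 4.6 and 19.5 ± 3.8, and Slc6a11 at 15.2 ± 4.2 and 18.8 ± 2.7. Over the 10 libraries the ranges of Aldoc and Glul overlapped with no other member, nor did that of the matched Aqp4 transcripts. Those of neighbours overlapped for Slc1a3 with Gfap, for Gfap with Gja1, for Gja1 with Slc1a2 and for Slc4a4 with Slc6a11, so these pairs are not ordered beyond their spread. Slc1a2 has more counts than Glul but a lower level per length, because its leading transcript, Slc1a2-202, is 11595 bases long. The place of Glul depended on the method: it fell from the second place to the fourth when gene CPM was divided by the length of the leading transcript, because 20.8% and 21.6% of its count were assigned to Glul-203 and Glul-202, which are 379 and 681 bases long. The level of Aqp4 counts only the transcripts matched by identifier, which held 57.4% of its gene count, so its level per length is understated and its distance from Slc1a2 and Gja1 is not settled.

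Several of the 9 genes are read mainly as a single transcript. Slc1a2-202 held 99.7% of its gene's counts in the mean over libraries, Gja1-201 99.8%, Slc6a11-201 99.7%, Slc1a3-201 99.6%, Slc4a4-207 93.7% and Aldoc-202 89.5%, with 10.4% in Aldoc-201. Glul-201 held 57.6% of its gene. Aqp4-201 held from 18.3% to 49.2% of its gene by library and Aqp4-205 a mean of 19.4%. The share of Aqp4-201 averaged 29.1 ± 8.9% under vehicle and 39.8 ± 8.3% under AM6545 (SD over n = 5 per group). The log2 fold change was 0.34 for Aqp4-201 (SE 0.24) and -0.29 for Aqp4-205 (SE 0.23), beside -0.11 for the gene. Of 63 transcripts of the 9 genes matched by identifier, 43 had counts and 23 were tested, of which 12 had a log2 fold change above 0 and 11 below. By edgeR, 0 of the 23 had an unadjusted p under 0.05, where 627 of 31848 transcripts did (1.97%, with 1.1% higher and 0.873% lower in AM6545), and the smallest p was that of Slc6a11-201 (log2 fold change 0.30, SE 0.18). Over all transcripts 1 was called at an adjusted p under 0.05 (0.00314%) and none of the 23 was. Groups did not overlap for 183 transcripts (0.575%, with 0.295% higher and 0.279% lower in AM6545), and for 0 of the 23.

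The transcripts of Gfap give proteins with different tails. Gfap-201 encodes the main form, GFAP alpha, of 430 residues, and Gfap-202 the form known as GFAP delta, of 428 residues, which assembles poorly by itself and is enriched in neurogenic niches. The transcripts share their coding sequence up to exon 7 and then part, and their levels are given because the balance between them differed between libraries.

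Gfap-201 measured 111, 275, 198, 217 and 208 CPM under vehicle and 219.6, 199, 257, 283 and 233 CPM in AM6545 libraries. Gfap-202 measured 75.2, 80.9, 74.4, 90.1 and 76.9 CPM under vehicle and 81.9, 63.8, 80.5, 83.8 and 73.1 CPM in AM6545 libraries. The alpha transcript spanned 2.54-fold from its lowest to its highest library and the delta transcript 1.41-fold, with coefficients of variation of 22.2% and 9.17%. The wider span of the alpha transcript rests on vehicle replicate 1, at 111 CPM. In all other libraries it lay between 198 and 283 CPM. The log2 fold change was 0.24 for Gfap-201 (SE 0.21, 95% interval -0.22 to 0.69) and -0.054 for Gfap-202 (SE 0.093, 95% interval -0.26 to 0.15).

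Gfap-202 made up 40.3%, 22.7%, 27.3%, 29.4% and 27.0% of the Gfap count in vehicle replicates 1 to 5, and 27.2%, 24.3%, 23.9%, 22.9% and 23.9% in AM6545 replicates 1 to 5. Vehicle replicate 1 was the highest, and the other 9 libraries lay between 22.7% and 29.4%. Its exact 95% Clopper-Pearson interval, from 38.8% to 41.9%, covers counting error only, not the assignment of reads to transcripts or the spread between libraries. The group means were 29.3 ± 6.6% and 24.4 ± 1.6% (SD over n = 5 per group), and without vehicle replicate 1 the vehicle mean was 26.6 ± 2.8%. The ranges of the groups overlapped with and without that library.

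**Figure D3:**
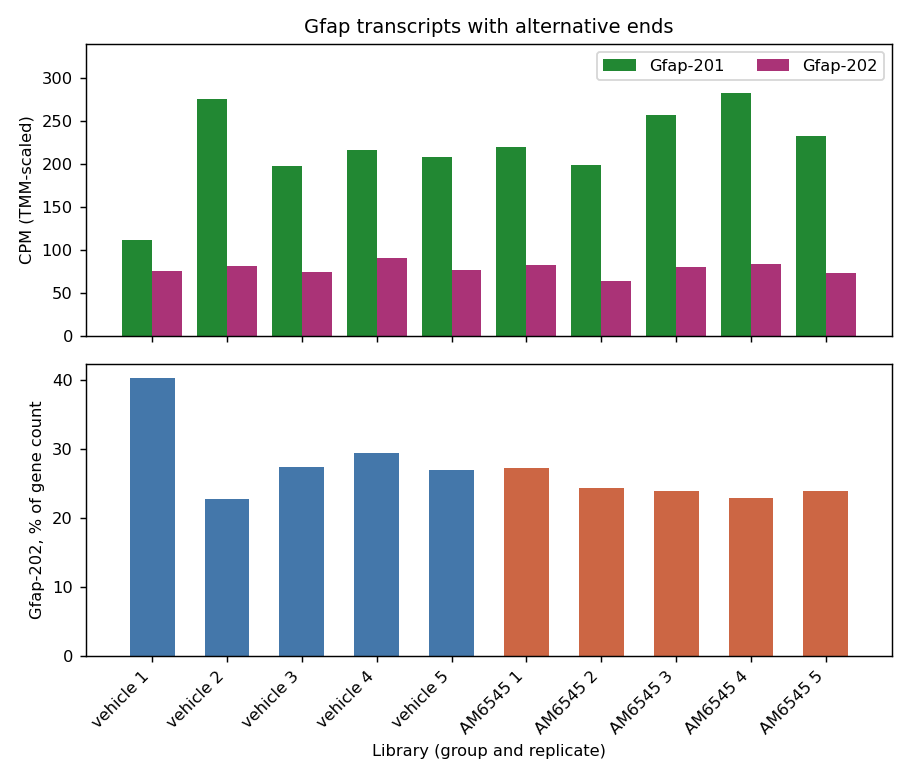
Gfap transcripts by library. The upper bars give the TMM-scaled CPM of Gfap-201 and Gfap-202, the lower bars the share of Gfap-202 in the Gfap count in percent, which is 40.3% in vehicle replicate 1 and between 22.7% and 29.4% elsewhere.

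Slc4a4 has an upstream and an internal start, which give proteins with different beginnings. The upstream start, between 88886818 and 88887299 on chromosome 5, gives the widely expressed form, and the internal start, between 89027966 and 89028092, the form best known from kidney. Slc4a4-207 stands for the upstream group, with 84 codons before the shared part of a protein of 1079 residues, and Slc4a4-203 for the internal group, with 40 codons and 1035 residues. Capitals mark the last 60 coding bases that belong to 1 start, and lower case the first 30 shared ones, on the plus strand of GRCm38.
Slc4a4-207: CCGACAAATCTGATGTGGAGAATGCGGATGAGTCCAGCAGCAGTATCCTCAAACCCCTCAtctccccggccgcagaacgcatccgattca
Slc4a4-203: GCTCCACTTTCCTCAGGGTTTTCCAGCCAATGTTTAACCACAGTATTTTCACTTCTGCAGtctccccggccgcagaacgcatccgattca
The capitals lie at chr5:88954898-88954957, in exon 3, for Slc4a4-207 and at chr5:89028233-89028292, in exon 1, for Slc4a4-203. The 4 upstream transcripts held 1074 to 1808 counts in each library, 99.2% of the gene on average. The 3 internal transcripts held 3 counts in total, found in 2 of the 10 libraries. The Slc4a4 level reported above is therefore that of the upstream form in both groups.

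Over the 10 libraries the mean Pearson correlation of log2 CPM among the 36 pairs of members was 0.18, with 22 pairs above 0 (Spearman mean 0.16). It was 0.30, with 26 pairs above 0, without vehicle replicate 1, and 0.11 without AM6545 replicate 3. A group of 5, Slc1a3, Slc6a11, Gja1, Gfap and Slc4a4, picked after their values were seen, had pairwise correlations from 0.58 to 0.93 with a mean of 0.79 (Spearman mean 0.64). The same 5 had a mean correlation of -0.64 with Glul and of -0.33 with Aldoc (Spearman means -0.38 and -0.21). Without vehicle replicate 1 these 3 Pearson means were 0.60, -0.083 and 0.12, and all 10 pairs among the 5 remained above 0. With Glul, 2 of the 5 pairs were then above 0, while Gja1 (-0.47), Slc1a3 (-0.32) and Slc4a4 (-0.23) remained below. With Aldoc, 3 of the 5 pairs were then above 0. All values describe the same 10 libraries, in each of which all genes share 1 depth and 1 preparation, and carry no test.

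By the mean correlation with the 9 members over the 10 libraries, the most similar other genes were Nfasc at 0.51, Neo1 at 0.50, and Hhip, Ppp1r16b and Acvr1 at 0.49. Nfasc encodes neurofascin, an adhesion protein of the axon initial segment and node. Neo1 encodes the receptor neogenin, Hhip a binding protein of hedgehog ligands and Acvr1 a receptor of bone morphogenetic proteins. None followed every member, since the lowest correlation of each with a member lay between -0.58 and -0.34. They are the top of a ranking of all other tested genes, made with vehicle replicate 1 among the libraries, and carry no test.

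**Figure D4:**
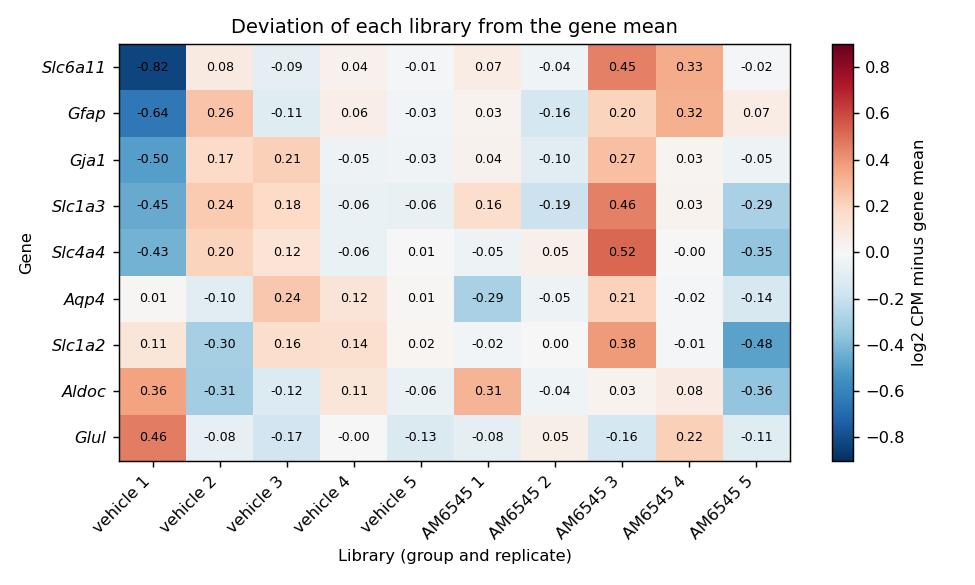
Deviation of each library from the gene's mean, in log2 CPM, for the 9 astrocyte genes (rows) and 10 libraries (columns), with red above and blue below the mean. Vehicle replicate 1 runs from -0.82 for Slc6a11 to 0.46 for Glul, and AM6545 replicate 3 is above the mean for 8 of the 9 genes.

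Vehicle replicate 1 was the lowest library for 5 members and the highest for 2. This was not limited to astrocyte genes, since it was the lowest library for 23.5% of all tested genes and the highest for 25.1%. Its deviation from the gene mean varied with transcript length. The median deviation, on the log2 scale, was 0.42 in bin 1 of 5, the genes with the shortest leading transcripts (204 to 1656 bases), 0.13 in bin 2, -0.096 in bin 3 (2474 to 3370 bases), -0.25 in bin 4 and -0.12 in bin 5, the longest. In the other 9 libraries the median of bin 1 lay between -0.18 and 0.039. Among the members, Aldoc (1700 bases) deviated in that library by 0.36, Glul (2792 bases) by 0.46, Gfap (2648 bases) by -0.64, Slc1a3 (4163 bases) by -0.45, Slc6a11 (4132 bases) by -0.82 and Slc1a2 (11595 bases) by 0.11. Of the 20 other astrocyte markers below, 6 were lowest and 4 highest in vehicle replicate 1, from -0.82 for Fgfr3 to 0.37 for Slc7a10, with a median of -0.042. Their summed CPM of 4570 was inside the range of the other vehicle libraries (4202 to 4587). The largest part of that sum came from Ndrg2, with a mean of 1589 CPM under vehicle, which deviated by 0.15 in vehicle replicate 1. The summed CPM of choroid plexus and ependyma markers was highest of all in that library, at 4924. The part of transcript length or of other cells in the members' values was not tested.

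**Figure D5:**
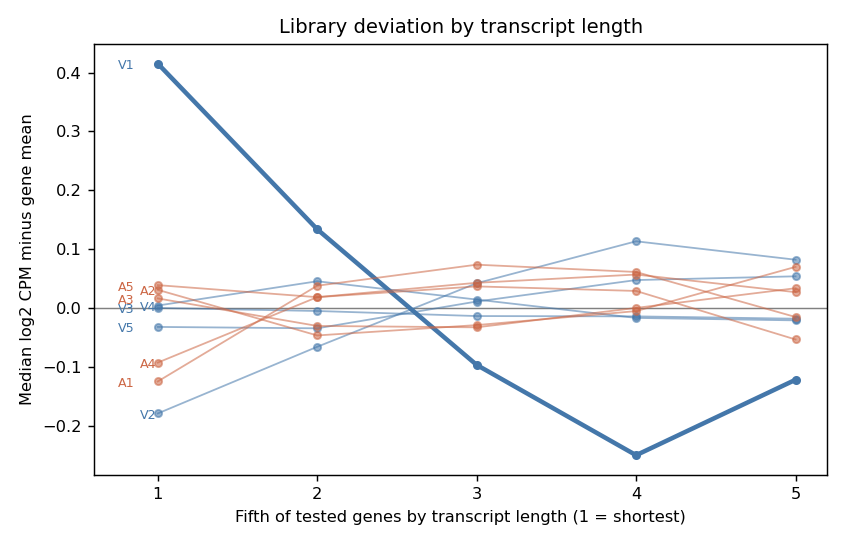
Median deviation from the gene mean in log2 CPM (y axis) of all tested genes, grouped into 5 equal bins by the length of the leading transcript (x axis, 1 = shortest), with 1 line per library (V vehicle, A AM6545). The thick line, vehicle replicate 1, goes from 0.42 in bin 1 to -0.25 in bin 4.

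AM6545 replicate 3 was the highest library for 5 members (Slc1a2, Slc1a3, Slc6a11, Gja1 and Slc4a4) and for 9 of the 20 other astrocyte markers. It was the highest for 9.71% of all tested genes. Its median deviation on the log2 scale was 0.27 over the members and 0.30 over those markers. The same library had the highest sum of oligodendrocyte markers, 28210 CPM, and the lowest sum of neuron markers, 6084 CPM. AM6545 replicate 5 was the lowest library for Slc1a2 and Aldoc and for 7 of the 20 markers, beside 8.80% of all tested genes. Its median deviations were -0.14 over the members and -0.23 over those markers. It had 15210 CPM of oligodendrocyte and 7118 CPM of neuron markers. The part of cell makeup in these values was not tested. Without AM6545 replicate 3 the log2 fold changes of Slc1a3, Gja1 and Slc4a4 turned to -0.048, -0.0021 and -0.064. Without AM6545 replicate 5 that of Slc1a2 turned to 0.06, and without vehicle replicate 1 those of Slc1a3, Gja1, Slc4a4 and Glul turned to -0.021, -0.039, -0.010 and 0.083. The sign for Aldoc, whose fold change was nearest to 0, turned without vehicle replicate 2 (-0.066), 3 (-0.027) or 5 (-0.014) and without AM6545 replicate 1 (-0.083) or 4 (-0.0096). Slc6a11, Gfap and Aqp4 kept their sign in each of the 18 alternatives.

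Other astrocyte genes were read from the same fit, with the shares over all tested genes at an unadjusted p under 0.05 being 1.14% higher and 0.738% lower in AM6545. Of 20 further astrocyte markers, all tested, 9 had a log2 fold change above 0 and 11 below (median -0.020), and 1 passed at an unadjusted p under 0.05 by edgeR. That gene was Aldh1l1, a folate enzyme used as a general astrocyte marker, which averaged 67.3 ± 6.3 CPM under vehicle and 81.2 ± 8.5 CPM under AM6545 (SD over n = 5 per group). Its log2 fold change was 0.27 (SE 0.10, adjusted p = 0.9998 by edgeR), and it did not pass the adjusted test. The smallest p in the other direction was that of F3, tissue factor, at -0.16 (SE 0.10). The potassium channel gene Kcnj10 had 34.7 ± 6.7 and 33.5 ± 6.0 CPM (SD over n = 5 per group).

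Of 16 genes of the glutamate and GABA cycle, 11 were above 0 and 5 below (median 0.040), and 0 had an unadjusted edgeR p under 0.05. The smallest p was that of Gad1, the GABA-making enzyme of interneurons, at 0.23 (SE 0.12), and on the other side that of Slc38a3, an astrocyte glutamine exporter, at -0.33 (SE 0.20). The neuronal glutamate transporter Slc1a1 averaged 257 ± 39 CPM under vehicle and 256 ± 32 CPM under AM6545 (SD over n = 5 per group).

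Of 8 genes listed for endfoot anchoring, 5 were above 0 and 3 below (median 0.059), and 0 passed at the unadjusted threshold by edgeR. Kcnj10, Mlc1 and Hepacam in this list are also among the astrocyte markers above, so their values are counted in both. The smallest p below 0 was that of Kcnj10, at -0.051 (SE 0.148). Of 12 filament and reactive astrocyte genes, 7 passed the filter, with 4 above 0 and 3 below (median 0.065) and 0 at the unadjusted threshold by edgeR. Cd44, a hyaluronan receptor, was at 0.30 (SE 0.20) and Serpina3n, a serpin induced in reactive astrocytes, at -0.16 (SE 0.131), while the filament gene Vim had 25.4 ± 5.3 and 26.6 ± 2.1 CPM (SD over n = 5 per group).

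Of 10 genes for synapse-forming and phagocytic proteins of astrocytes, 6 were above 0 and 4 below (median 0.035), and 0 passed at the unadjusted threshold by edgeR. The thrombospondin genes Thbs2 and Thbs1 were at 0.15 (SE 0.21) and -0.44 (SE 0.30). Of 11 genes of glycolysis and lactate transport, 8 were above 0 and 3 below (median 0.042). Pygb, the brain glycogen phosphorylase, was the 1 gene at an unadjusted p under 0.05, averaging 148 ± 29 CPM under vehicle and 181 ± 20 CPM under AM6545 (SD over n = 5 per group). Its log2 fold change was 0.29 (SE 0.13, adjusted p = 0.9998 by edgeR). Car2, carbonic anhydrase, had the smallest p below 0 (-0.083, SE 0.111). Aldoa, the aldolase of most tissues, stood at 3111 ± 804 and 3131 ± 540 CPM (SD over n = 5 per group).

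The fraction held RNA of several cell types besides astrocytes, and each of the marker lists had all its genes detected. Summed neuron markers, led by Snap25, ranged from 6334 to 7821 CPM under vehicle and from 6084 to 7272 CPM in AM6545 libraries. Oligodendrocyte markers, led by Mbp, ranged from 14410 to 20930 and from 12240 to 28210 CPM, with all 7 genes above 0 (median log2 fold change 0.15) and 0 at an unadjusted edgeR p under 0.05. Microglia markers, led by Csf1r, ranged from 505 to 669 and from 475 to 666 CPM, oligodendrocyte precursor markers, led by Pdgfra, from 31.2 to 40.0 and from 29.5 to 46.2 CPM, and endothelial markers, led by Slco1a4, from 9.86 to 23.3 and from 11.6 to 24.8 CPM. Choroid plexus and ependyma markers, led by Ttr, ranged from 59.3 to 4924 and from 638 to 3931 CPM, with all 7 genes below 0 (median log2 fold change -0.34) and 0 at an unadjusted edgeR p under 0.05. Cnr1, which encodes the receptor that AM6545 blocks, averaged 96.7 ± 9.7 CPM under vehicle and 99.4 ± 4.5 CPM under AM6545 (SD over n = 5 per group), a log2 fold change of 0.040 (SE 0.093).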

How the data were processed

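Per the labels' protocols, a SMARTer kit for small RNA amounts turned total RNA of hippocampal synaptoneurosomes into libraries. The authors deposited estimated counts per gene and per transcript for 10 libraries (38.6% and 41.6% of values were not whole numbers). The submitters' processing notes name Salmon 1.5.2 and mm10, without their roles. The annotation release and the use of strand are not given in the sources used here. Symbols were assigned by identifier to 22155 of 22255 genes, and names, lengths, coordinates and sequences came from GENCODE M21 (GRCm38), which matched 101527 of 102392 transcripts, and 11 gene identifiers had the same version there. TPM was computed here from counts and those lengths.

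Counts were rounded and fitted with edgeR 4.0.16 in R 4.3.3 (TMM, filterByExpr with minimum count 10 and minimum total 15, robust quasi-likelihood, group alone), two-sided, with Benjamini-Hochberg adjustment over all tested features and a threshold of 0.05. Log2 CPM used a prior count of 2. The fit was tested on simulated counts with 200 changed genes. Shared sequence was counted as 31-base words. Alternatives used DESeq2 1.42.0, limma 3.58.1 (voom with quality weights), other scaling or filters, non-robust dispersions, a replicate block and each library left out. Levels by leading transcript were added after seeing the data. Python 3.11.15 computed descriptions. The labels give no batch.

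The 9 members and the gene lists were chosen with earlier results of these data known. Named were all members, their transcripts with at least 10% of the gene's counts or an unadjusted p under 0.05, in each list the gene of smallest p in each direction, Slc1a1, Kcnj10, Aldoa, Vim and Cnr1, the 5 genes most correlated with the members, and the most abundant gene of each marker list. Other names were chosen after their values were seen. A few items that this rule selects are not reported here.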

Additional observations from a re-analysis of the deposited data

Results flagged for a closer look

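A library was set apart where its distance to the nearest other library of its group was large against the group's range (Dixon's test at 95%, 5 libraries a group). Chance alone flags about 1 in 20 groups, or 2.6 of the 52 tested, and 4 stood out. Slc6a11 in vehicle replicate 1 had 19.7 CPM, where the other vehicle libraries had 32.9 to 36.9. Glul in the same library had 425 CPM, where the others had 275 to 309. The summed neuron markers of AM6545 replicate 3 stood at 6084 CPM, where the other AM6545 libraries had 7013 to 7272. The summed oligodendrocyte markers of vehicle replicate 3 stood at 20930 CPM, where the other vehicle libraries had 14410 to 15690.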

How the results depend on the processing

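In all 18 alternative gene fits 0 of the 9 genes were called, and none of their transcripts was called in any transcript fit. Among all genes, 0 were called in the main analysis, 1 with limma-voom and 0 to 1 when each library was left out. Among all transcripts, 1 was called, against 11 with DESeq2, 0 with at least 10 counts in every library and 0 to 4 when each library was left out. Between libraries of the same replicate number, the correlations of deviations were -0.14, -0.19, 0.23, 0.39 and 0.065, with 3 of 5 highest for their own number. These values do not settle whether the numbers pair the libraries. With a replicate block 0 genes and 0 transcripts were called, and Slc6a11 stood at 0.32 (adjusted p = 0.9997 by edgeR), with an unadjusted p under 0.05 as also without vehicle replicate 2 (0.36). With limma-voom the sign turned for Glul (0.12), Gja1 (-0.0083) and Slc4a4 (-0.039).

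When each library was left out, log2 fold changes ranged from -0.15 to 0.060 for Slc1a2, -0.048 to 0.15 for Slc1a3, -0.11 to 0.083 for Glul, -0.039 to 0.12 for Gja1, -0.083 to 0.11 for Aldoc and -0.064 to 0.16 for Slc4a4, each of which changed sign in at least 1, and from 0.17 to 0.36 for Slc6a11, -0.18 to -0.062 for Aqp4 and 0.049 to 0.26 for Gfap, which did not. The cause of the sign changes was not tested. Per length, Slc1a3 moved from place 3 to 2, Gfap from 4 to 3 and Glul from 2 to 4 with the leading transcript's length. The share of counts differed by 0.0083 percentage points between groups, and by -0.0069 to 0.029 with each library left out. The 95% intervals of the 9 genes reach up to 0.62 on the log2 scale, for Slc6a11, at this number of libraries.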
